A study of Mus musculus with 12 samples.

Results

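The 37 genes described here encode the machinery of macroautophagy and the lysosome that receives its cargo, out of 20018 named genes with a probe on the array. They were chosen by function: 5 genes of the ULK initiation complex, 6 of the class III PI3-kinase complex, 5 that supply membrane to the growing autophagosome, 7 of the conjugation system, 5 ATG8-family genes, 3 cargo receptors and 6 lysosomal genes including the transcription factor Tfeb. All 37 had a probe, and 36 passed the detection filter, which kept a probe where some group had all 3 of its arrays well above background. The gene left out, Optn, a cargo receptor, was well above background on 7 arrays but never on all 3 of a group.

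The study measured splenic B cells from mice with and without Sub1, the gene for the transcription coactivator PC4, to examine what PC4 does in B cells. All 12 samples carried the B1-8hi immunoglobulin heavy chain knock-in and floxed Sub1 alleles (B1-8hi:Sub1fl/fl), and the knockout cells additionally carried Mb1-Cre, a Cre recombinase inserted in Cd79a and active in the B lineage. The 4 groups of 3 samples were knockout stimulated, control stimulated, knockout resting and control resting cells. Stimulated cells had been cultured for 72 hours with the antigen NP-ficoll, CD40 ligand and the interleukins IL-5, IL-4 and IL-2, whereas resting cells were labelled naive, so culture and stimulation differ together. Loss of PC4, the presence of Cre and the insertion in Cd79a cannot be told apart, because the controls lack all of them. The labels do not say whether replicates came from separate mice, so the p-values describe no more than the spread of the samples measured, part of which may be technical. Each group enters a comparison of genotypes and a comparison of states, so these comparisons share samples.

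Autophagy encloses cytoplasm in a double membrane and delivers it to the lysosome. The ULK kinase complex starts the process, the class III PI3-kinase makes the lipid that marks the site, ATG9 vesicles and ATG2 supply membrane, and a ubiquitin-like conjugation system attaches ATG8 proteins (the LC3 and GABARAP families) to it. In mouse B cells, autophagy genes are known for their part in the survival of memory B cells and plasma cells, and TFEB is known as a transcription factor that binds an E-box, CACGTG, in the promoters of many lysosomal and autophagy genes.

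Because CACGTG is the best known sequence link within the set, the promoters that hold it are shown first. RefSeq windows (build GRCm38.p6) of 250 bases before to 50 bases after the transcription start were present for 30 of the 37 genes. The 7 genes with no entry were Rb1cc1, Becn1, Pik3c3, Atg12, Atg16l1, Map1lc3a and Ctsb. CACGTG, which reads the same on both strands, occurred in 7 of these 30 genes (23.3%), against 8.09% of the 27025 genes of the table. They were Atg14, Atg3, Atg5, Atg7, Ctsd, Ctsl and Lamp1. The longer TCACGTGA, which contains CACGTG and is also the same on both strands, occurred in 2 of the 30 genes (6.67%), against 1.12% of all genes. With a G before it and a C after it, TCACGTGA occurred in 0 of the 30 genes, against 0.37% of all genes. Of the 9 genes that changed with stimulation in control cells, described below, 7 had a window, and CACGTG stood in the window of 1 that rose (Ctsd) and 1 that fell (Atg7). A match is a description of the letters in the window and not a site of binding. The windows below are those of the lysosomal protease Ctsd (chr7:142387778-142388077, minus strand), the lysosomal membrane glycoprotein Lamp1 (chr8:13158911-13159210, plus strand), the conjugating enzyme Atg3 (chr16:45158579-45158878, plus strand) and the activating enzyme Atg7 (chr6:114670846-114671145, plus strand). They were picked because Ctsd and Atg3 hold TCACGTGA, Lamp1 holds the most copies of CACGTG (4), and Ctsd and Atg7 are the pair that changed. Each is written 5′ to 3′ on the gene's strand, with CACGTG or TCACGTGA in capitals.
Ctsd: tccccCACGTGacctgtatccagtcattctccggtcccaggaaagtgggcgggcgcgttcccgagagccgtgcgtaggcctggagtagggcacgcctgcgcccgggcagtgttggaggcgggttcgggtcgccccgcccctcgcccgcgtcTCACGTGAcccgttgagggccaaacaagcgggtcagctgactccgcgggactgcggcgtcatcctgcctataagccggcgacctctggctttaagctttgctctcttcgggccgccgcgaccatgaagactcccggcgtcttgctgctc
Lamp1: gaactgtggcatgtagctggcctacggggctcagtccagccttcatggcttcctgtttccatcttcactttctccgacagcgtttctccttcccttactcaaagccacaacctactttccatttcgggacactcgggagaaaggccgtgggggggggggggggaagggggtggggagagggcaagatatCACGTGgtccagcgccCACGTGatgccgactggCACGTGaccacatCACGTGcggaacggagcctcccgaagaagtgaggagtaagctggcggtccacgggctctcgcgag
Atg3: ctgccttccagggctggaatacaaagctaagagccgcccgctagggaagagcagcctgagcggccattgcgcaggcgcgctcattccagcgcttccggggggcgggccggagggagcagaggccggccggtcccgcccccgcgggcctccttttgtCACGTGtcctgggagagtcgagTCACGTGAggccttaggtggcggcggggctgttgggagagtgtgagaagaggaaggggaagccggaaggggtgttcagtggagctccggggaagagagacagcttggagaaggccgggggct
Atg7: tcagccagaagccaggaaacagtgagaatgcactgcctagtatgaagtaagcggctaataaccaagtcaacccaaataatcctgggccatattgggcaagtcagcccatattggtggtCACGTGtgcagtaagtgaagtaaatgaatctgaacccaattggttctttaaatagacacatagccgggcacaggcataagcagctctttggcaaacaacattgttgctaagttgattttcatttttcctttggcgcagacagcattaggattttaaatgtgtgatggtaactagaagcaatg
Counted from the start site, CACGTG, also where it lies within TCACGTGA, began at positions -245 and -98 in Ctsd, at -61, -45, -28 and -15 in Lamp1, at -94 and -71 in Atg3 and at -132 in Atg7. In the remaining 3 genes it began at -236 in Ctsl, at -14 in Atg5 and at -1 in Atg14.

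Levels are given throughout as log2 intensity relative to the 75th percentile of the array's own non-control spots, so 0 is the level of that percentile. They are compared between samples for 1 probe and never between genes. Changes were tested with limma on 22981 features, of which 12295 were named genes, and a gene was called at a Benjamini-Hochberg adjusted p under 0.05 over all of them. Between 24.3% and 76.8% of spots were well above background on an array. The lowest share belonged to control stimulated replicate 2, on which 22 of the 36 tested genes were well above background, while every other array had 34 to 36. Sub1 itself was at 6.72, 6.87 and 6.92 in knockout stimulated cells, against 8.19, 7.79 and 8.15 in control stimulated cells, a change of -1.21 (SE 0.19, limma adjusted p = 0.0114). In knockout resting cells it was at 5.37, 5.80 and 5.77, against 6.07, 6.02 and 6.0 in control resting cells, a change of -0.38 (SE 0.19, limma adjusted p = 0.268). These values are from the brighter of 2 Sub1 probes that passed the filter. The labels do not say whether the probe lies in the floxed part of the gene, so the resting libraries are knockout by label. Cd79a, which carries the Cre insertion, had changes of -1.10 (SE 0.24, limma adjusted p = 0.0343) in stimulated cells and -1.54 (SE 0.24, limma adjusted p = 0.0948) in resting cells. All 8 B cell markers were well above background on at least 1 array of every group. The Y-linked genes Ddx3y and Eif2s3y were well above background on 2 arrays, both of control replicate 1, and Xist on the other 10, so that replicate 1 of the control groups came from other mice than control replicates 2 and 3.

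In control cells, stimulation was accompanied by higher Vmp1, Gabarapl1 and Ctsd and by lower Pik3r4, Rb1cc1, Atg7, Tfeb, Wipi2 and Atg12. These 9 of 36 tested genes (25%) passed the test, 3 higher and 6 lower, against 27.8% of all features called in the same comparison, so the share called was near the background. By direction, 8.33% of the genes rose, against 14.7% of all features, and 16.7% fell, against 13.1%. At an unadjusted p under 0.05 there were 13 genes (36.1%), against 36.7% of all features. The median change of the 36 genes was -0.21, and that of all features was 0.04. Without control stimulated replicate 2 the median of the 36 genes turned positive, at 0.06, against 0.03 for all features, and leaving out each array in turn gave -0.36 to 0.06. In the same comparison all 8 B cell markers had negative changes, of which 7 were called. All 6 plasma cell markers had positive changes, of which 5 were called. The part of these cell types in the values of the 36 genes was not tested. In bulk RNA, fewer cells of a type and less RNA per cell cannot be told apart.

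Vmp1 showed the largest change of the set. It encodes an endoplasmic reticulum protein that moves lipid between membrane leaflets and is needed for autophagosome formation. Its level was 4.38, 3.80 and 3.87 in control stimulated cells, against 2.61, 2.46 and 2.27 in control resting cells. In knockout cells it was 3.98, 3.62 and 3.66 when stimulated, against 2.05, 2.45 and 2.38 when resting. All 6 stimulated samples lay above all 6 resting samples. The change was 1.57 (SE 0.22, limma adjusted p = 0.00037) in control cells, a 2.97-fold increase, and 1.46 (SE 0.22, limma adjusted p = 0.00127) in knockout cells, a 2.74-fold increase. It was called under all 25 alternative settings in both genotypes. The difference between these changes was -0.11, with a 95% interval of -0.79 to 0.57. Knockout and control cells differed by -0.26 when stimulated (-0.75 to 0.22) and by -0.15 when resting (-0.63 to 0.33).

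Gabarapl1, an ATG8-family gene, rose in control cells. It was at 3.51, 2.90 and 3.21 in control stimulated cells, against 2.28, 2.18 and 2.24 in control resting cells, which do not overlap. The change was 0.97 (SE 0.20, limma adjusted p = 0.00435). In knockout cells it was at 2.93, 3.09 and 2.85 when stimulated, against 2.27, 2.72 and 2.54 when resting, and the change of 0.45 (SE 0.20, limma adjusted p = 0.181) did not pass. Ctsd encodes cathepsin D, an aspartic protease of the lysosome. Its level was 4.0, 3.39 and 4.28 in control stimulated cells, against 3.11, 3.03 and 3.13 in control resting cells, a change of 0.80 (SE 0.23, limma adjusted p = 0.0252). The stimulated samples all lay above the resting ones, and replicate 2 was the lowest of them. In knockout cells it was 4.04, 4.52 and 4.24 when stimulated, against 3.63, 3.70 and 3.73 when resting, a change of 0.58 (SE 0.23, limma adjusted p = 0.131). A second Ctsd probe gave 0.58 (limma adjusted p = 0.0839) in control cells and 0.55 (limma adjusted p = 0.139) in knockout cells, without a call.

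Among the genes that fell in control cells, Pik3r4 had the largest change. It encodes the p150 (VPS15) regulatory subunit of the class III PI3-kinase. It was at 2.33, 1.62 and 1.78 in control stimulated cells, against 3.43, 2.90 and 2.72 in control resting cells, a change of -1.11 (SE 0.25, limma adjusted p = 0.00632). In knockout cells it was at 1.96, 1.61 and 1.71 when stimulated, against 1.72, 1.86 and 1.89 when resting. The 3 control resting samples stood above all 9 others, and the change in knockout cells was -0.07 (-0.61 to 0.48). The difference between these changes, 1.04 (SE 0.35, limma adjusted p = 0.285), was not called.

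Rb1cc1, the scaffold FIP200 of the ULK complex, was at 0.13, -0.11 and 0.34 in control stimulated cells, against 1.05, 0.94 and 0.90 in control resting cells, a change of -0.85 (SE 0.24, limma adjusted p = 0.0237). Atg7, the E1-like enzyme of both conjugation reactions, was at 0.66, 0.05 and 0.62 in control stimulated cells, against 1.35, 1.14 and 1.33 in control resting cells, a change of -0.83 (SE 0.22, limma adjusted p = 0.0169). Wipi2, which binds the lipid made by the PI3-kinase and recruits the conjugation system, was at 0.26, -0.58 and -0.12 in control stimulated cells, against 0.65, 0.61 and 0.83 in control resting cells, a change of -0.84 (SE 0.28, limma adjusted p = 0.0485). For these 3 genes the stimulated samples lay below the resting ones, and replicate 2 was the lowest and not well above background. Their second passing probes gave changes of 0.21, 0.22 and 0.02 (Rb1cc1, Atg7 and Wipi2 in that order), none of which was called, so the fall rests on 1 probe of each gene.

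Tfeb was at 1.04, 0.50 and 1.30 in control stimulated cells, against 1.87, 1.67 and 1.76 in control resting cells, a change of -0.82 (SE 0.24, limma adjusted p = 0.0254). Atg12, a ubiquitin-like protein that is joined to ATG5, was at 2.56, 2.22 and 2.20 in control stimulated cells, against 3.09, 3.15 and 2.77 in control resting cells, a change of -0.68 (SE 0.22, limma adjusted p = 0.0455). Neither pair of groups overlapped, and a second Atg12 probe gave -0.43 without a call. In knockout cells the changes of the 6 genes with stimulation were -0.07 (Pik3r4), -0.33 (Rb1cc1), -0.16 (Atg7), -0.49 (Wipi2), -0.35 (Tfeb) and -0.38 (Atg12), and none passed. Ulk2 and Atg10 show how a probe can decide a call. The probe used for the kinase gene Ulk2, its brightest, gave -0.29 in control cells, whereas its other probe fell by 1.58 (SE 0.28, limma adjusted p = 0.00174). For Atg10, an E2-like enzyme, the values were -0.21 and -1.12 (SE 0.32, limma adjusted p = 0.023). Testing every probe on its own was added after the data had been seen.

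**Figure D1:**
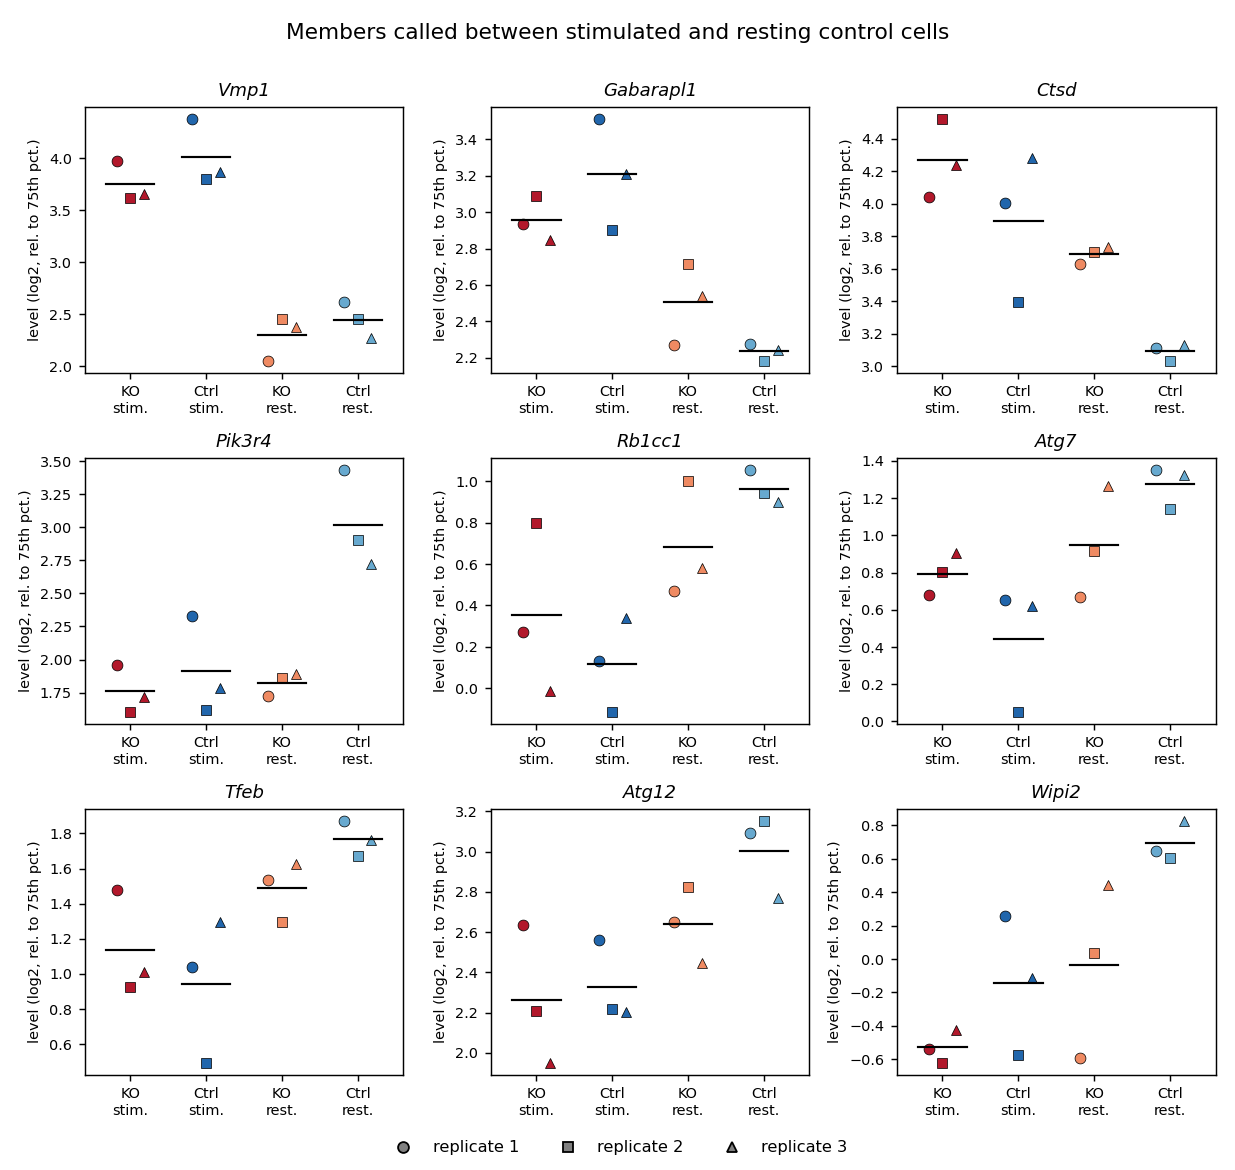
Levels of the 9 genes called between control stimulated and control resting cells. Each point is 1 array (y axis: log2 intensity relative to the array's 75th percentile), marker shapes give the replicate, colours give the group and bars are group means. For Vmp1 the 6 stimulated samples lie above the 6 resting ones, and for Pik3r4 the 3 control resting samples lie above the other 9.

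Most of these calls were lost in some fits with 1 array left out, in which the share of all features called also fell from 27.8%. Without control resting replicate 1, and likewise without control resting replicate 3, 3 of the 9 genes were called (Vmp1, Gabarapl1 and Pik3r4). The shares of all features called were 20.8% and 22.3%. Without control resting replicate 2 there were 5 calls (22.1% of all features), of which Wipi1 was not among the 9. Without control stimulated replicate 2 there were 5 (27.4% of all features). Leaving out both arrays of control replicate 1 also left Vmp1, Gabarapl1 and Pik3r4, against 16.9% of all features. Same-numbered samples correlated in this comparison, and with the replicate number as a block 10 genes (against 32.7% of all features) were called. They were the 9 above and Uvrag, a PI3-kinase subunit, at -0.53 (limma adjusted p = 0.0386 with the block, 0.111 without, and 0.000222 to 0.478 over its alternatives).

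Array scaling moved the balance of calls. Under the 75th percentile all features had a median change of 0.04 between control stimulated and control resting cells. It was -0.15 with quantile normalisation, 0.05 with median scaling and -0.35 with the percentile over spots detected on every array. The split of 3 higher and 6 lower genes became 2 and 9 with quantile normalisation, 2 and 18 over detected spots, and 2 and 11 after normexp background correction and quantile normalisation. The shares of all features called in either direction were 28.7%, 37.1% and 33.3% in that order. With median scaling 1 gene was higher (Vmp1) and 0 lower, against 14.6% of all features called. Ctsd, called higher under the 75th percentile, was not called with quantile normalisation, median scaling, detected spots or normexp correction. Vmp1 and Gabarapl1 kept a positive change and Pik3r4 a negative one under all 25 alternatives. Relative to all features, the median of the 36 genes was lower in this comparison under each of these scalings.

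In knockout cells 1 of 36 genes (2.78%), Vmp1, was called between stimulated and resting cells, against 16.1% of all features. At an unadjusted p under 0.05 there were 4 genes (Vmp1, Ctsd, Atg2a and Gabarapl1), 11.1% of the set against 27.5% of all features. The median change of the 36 genes was -0.06, and that of all features was 0.10. The distance from the background depended on scaling. With quantile normalisation 1 gene was called higher and 5 lower, against 19.8% of all features called. After normexp correction the counts were 1 and 7, against 23.8%, and over detected spots 1 and 11, against 21.5%. The second Ulk2 probe also fell in knockout cells, with a change of -0.95 (SE 0.28, limma adjusted p = 0.0425). Without control stimulated replicate 2, whose spread enters the shared variance, Ctsd was called as well. The difference between the genotypes in the effect of stimulation was called for 0 of 36 genes by limma, against 0.144% of all features. At an unadjusted p under 0.05 there were 3 genes, Pik3r4, Atg14 and Atg9a (8.33%, against 10.6% of all features). Normexp correction called 1 (Pik3r4), against 1.74% of all features. Atg14, the subunit that directs the PI3-kinase to autophagy, had changes of 0.38 in knockout and -0.50 in control cells. Atg9a, the membrane protein of ATG9 vesicles, had changes of 0.26 in knockout and -0.58 in control cells. Calls in control cells that were absent in knockout cells were therefore not shown to differ between the genotypes.

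**Figure D2:**
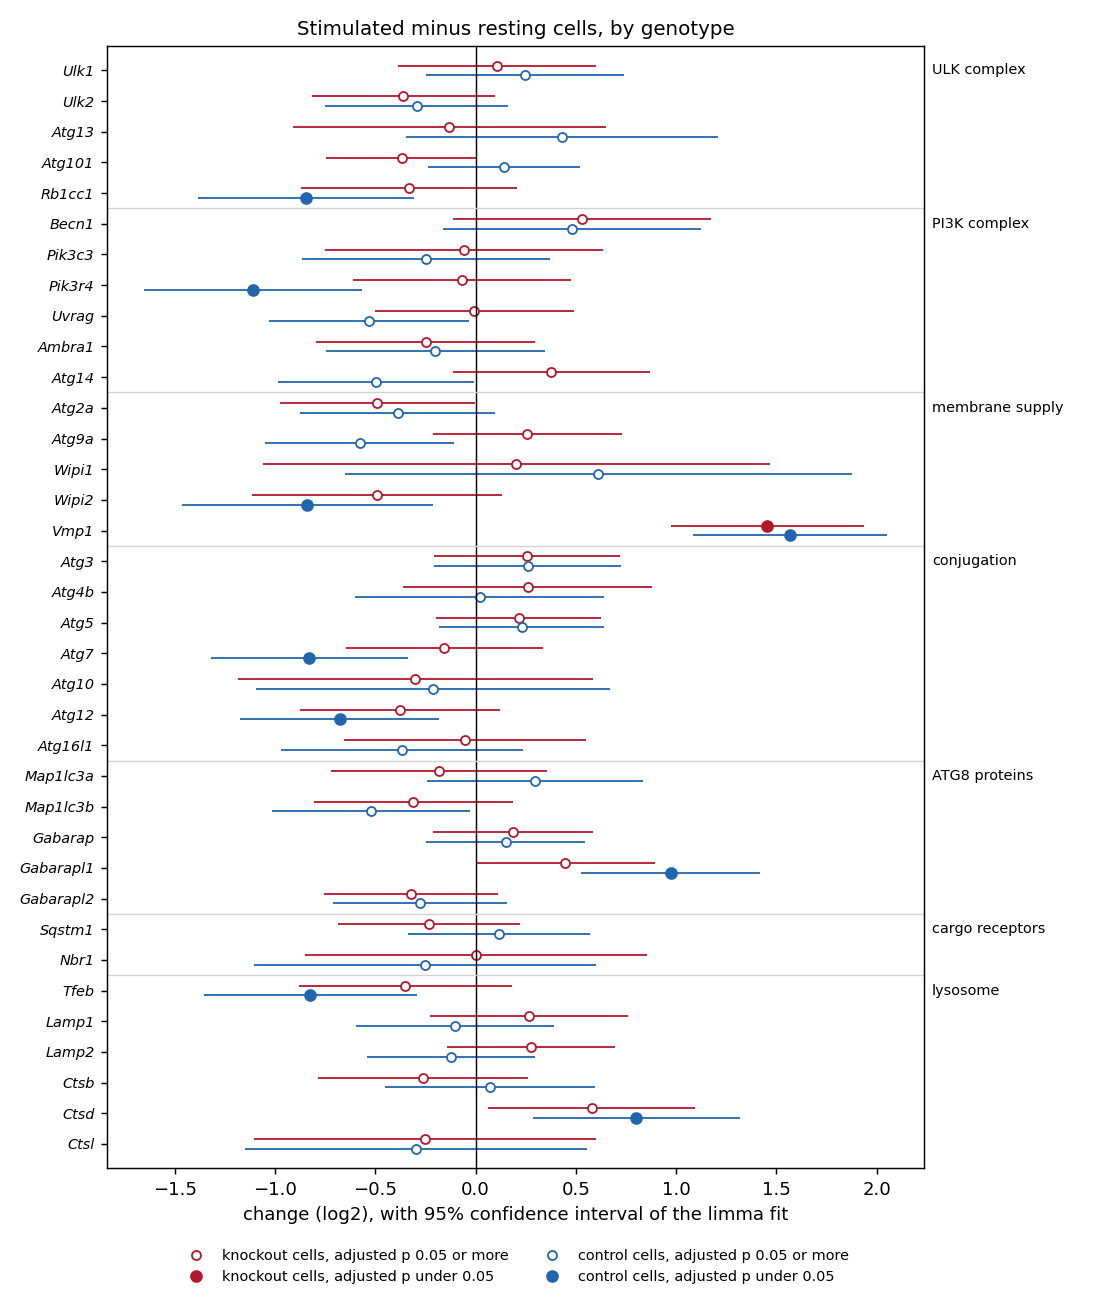
Change of each of the 36 tested genes with stimulation (x axis: stimulated minus resting, log2), in knockout cells (red, upper) and control cells (blue, lower). Lines are 95% confidence intervals and filled points passed an adjusted p of 0.05. In knockout cells the filled point is Vmp1 alone, and in control cells 9 points are filled.

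For the remaining genes the changes with stimulation in control cells follow by role. In the ULK complex they were 0.25 for the kinase Ulk1, 0.43 for the adaptor Atg13 and 0.14 for its partner Atg101. In the PI3-kinase complex, Becn1, the scaffold Beclin, had 0.48, the catalytic subunit Pik3c3 had -0.25 and the regulator Ambra1 had -0.20. Pik3c3 has 1 missing value, in knockout resting replicate 2. None of these 6 was called. Among membrane suppliers, the lipid transfer gene Atg2a had -0.39, and Wipi1, related to Wipi2, had 0.61 with control resting values of -1.94, 0.89 and -0.99, the widest spread of a group in the set among tested genes. Of the conjugation genes, the E2-like Atg3, the protease Atg4b, Atg5 (the partner of ATG12) and Atg16l1 (which binds their conjugate) ranged between -0.37 (Atg16l1) and 0.26 (Atg3). The LC3 gene Map1lc3b had -0.52 (adjusted p = 0.116), Map1lc3a had 0.30, Gabarap had 0.15 and Gabarapl2 had -0.28. The receptors for ubiquitinated cargo had 0.12 (Sqstm1, p62) and -0.25 (Nbr1). Lysosomal membrane and protease genes other than Ctsd stayed between -0.30 (Ctsl, cathepsin L) and 0.07 (Ctsb, cathepsin B), with no call.

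Between knockout and control cells, 0 of the 36 genes passed the limma test in either state. In stimulated cells the background was 3.46% of features called. The trended robust variance called 2 there (6.68% of all features) and 1 in resting cells (0.466%). Normexp correction called 2 (4.4%) and 3 (1.03%). At an unadjusted p under 0.05 there were 4 genes in stimulated cells (Atg101, Sqstm1, Atg13 and Gabarapl2), 11.1% of the set against 22.1% of all features. Groups did not overlap for 7 of the 36 genes (19.4%), against 25% of all features. In resting cells the background was 0.0131%, and 8 genes had an unadjusted p under 0.05 (22.2%, against 19.7% of all features). There, groups did not overlap for 15 genes (41.7%, against 36.7%), 13 of them lower in knockout cells (36.1%, against 26.7%). Atg10 is among the 13, and it met the detection filter only through control resting cells. The change was negative for 23 of the 36 genes in stimulated cells (63.9%, against 51% of all features) and for 28 in resting cells (77.8%, against 62.2%). The median change was -0.20 in stimulated cells, against -0.02 for all features, and -0.31 in resting cells, against -0.21 for all features. For named genes alone the median was -0.12 in stimulated and -0.27 in resting cells. The order of these medians depended on scaling. In resting cells the 36 genes had -0.04 with quantile normalisation, against -0.05 for all features. After normexp correction they had -0.005, against -0.03. In stimulated cells they had 0.06 with quantile normalisation, against 0.09, and 0.044 after normexp correction, against 0.041. With median scaling and over detected spots the 36 genes stayed lower in both states.

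The genes nearest to a call in stimulated cells were lower in knockout cells. Atg101 was at 2.93, 2.84 and 2.91 in knockout stimulated cells, against 3.69, 3.29 and 3.68 in control stimulated cells. Every knockout sample lay below every control sample. The change was -0.66 (SE 0.17, limma adjusted p = 0.0628), with a 95% interval of -1.04 to -0.29. Sqstm1 was at 1.70, 1.46 and 1.81 in knockout stimulated cells, against 2.62, 2.01 and 2.41 in control stimulated cells, again without overlap. Its change was -0.69 (SE 0.21, limma adjusted p = 0.0973). Atg13 was at 2.33, 2.17 and 2.96 in knockout stimulated cells, against 3.63, 2.68 and 3.86 in control stimulated cells. Knockout replicate 3 lay above control replicate 2, and the change was -0.90 (SE 0.35, limma adjusted p = 0.174). With the replicate number as a block, these 3 genes were called lower, at limma adjusted p = 0.0314 (Atg101), 0.0416 (Sqstm1) and 0.0425 (Atg13). With the slide as a block, Atg101 alone was called, against 5.7% of all features. Same-numbered samples correlated in this comparison, but replicate 3 of every group lay on another slide than replicates 1 and 2. The correlations therefore do not show that knockout and control samples were pairs. Over all alternatives the adjusted p of these genes was 0.0139 to 0.475 (Atg101), 0.0254 to 0.478 (Sqstm1) and 0.0425 to 0.536 (Atg13). Over all features there were 1865 calls with the replicate block (8.12%) and 796 without it, of which 795 were shared. The same 3 genes were called without control stimulated replicate 2, the array with the fewest detected spots, against 6.73% of all features. All 3 kept a negative change under all 25 alternatives. Gabarapl2, an ATG8-family gene, was at 3.84, 3.59 and 3.70 in knockout stimulated cells, against 4.43, 3.85 and 4.28 in control stimulated cells, without overlap and at -0.48 (SE 0.20, limma adjusted p = 0.191).

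In resting cells Pik3r4 was nearest to a call. Its change between the knockout resting and control resting levels given above was -1.19 (SE 0.25, limma adjusted p = 0.158), with no overlap, -1.38 on the slide of replicates 1 and 2 and -0.83 on the slide of replicate 3. It was called lower under 3 of 25 alternatives (normexp correction, the filter on all arrays, and the trended robust variance), with adjusted p from 0.0216 to 0.477. This comparison and that of stimulation in control cells share the control resting arrays, which are the high ones for Pik3r4. All 6 PI3-kinase genes and all 7 conjugation genes had negative changes, with medians of -0.51 and -0.37, against -0.21 for all features and -0.27 for named genes. Of 26 further autophagy genes tested in the same comparison, 24 also had negative changes, with a median of -0.31. The PI3-kinase genes ranged from -1.19 (Pik3r4) to -0.38 (Ambra1), with Becn1 at 0.01, 0.13 and 0.62 in knockout resting cells, against 1.10, 0.92 and 0.72 in control resting cells. Conjugation genes ranged from -0.68 (Atg10) to -0.32 (Atg7), with Atg16l1 at 0.23, 0.05 and 0.42 in knockout resting cells, against 1.15, 0.87 and 0.64 in control resting cells. Atg10 met the detection filter only through control resting cells, where its mean was highest, so the filter itself favoured a lower knockout value for it. None of the PI3-kinase and conjugation genes was called, with adjusted p of 0.247 for Becn1 and 0.24 for Atg16l1. After normexp correction 1 of the 6 and 1 of the 7 were positive, and over detected spots 0 and 2 were. All 8 B cell markers also had negative changes between resting cells, with a median of -0.59 and no call, and their summed linear level was 684 to 809 in knockout resting cells, against 1008 to 1181 in control resting cells. The 3 erythroid markers tested had positive changes without a call, with sums of 38.8 to 158 in knockout resting cells, against 3.14 to 50.8 in control resting cells. All 8 T cell markers had positive changes without a call, with sums of 9.51 to 15.9 in knockout resting cells, against 6.42 to 9.73 in control resting cells. The part of these cells in the values of the PI3-kinase and conjugation genes was not tested.

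**Figure D3:**
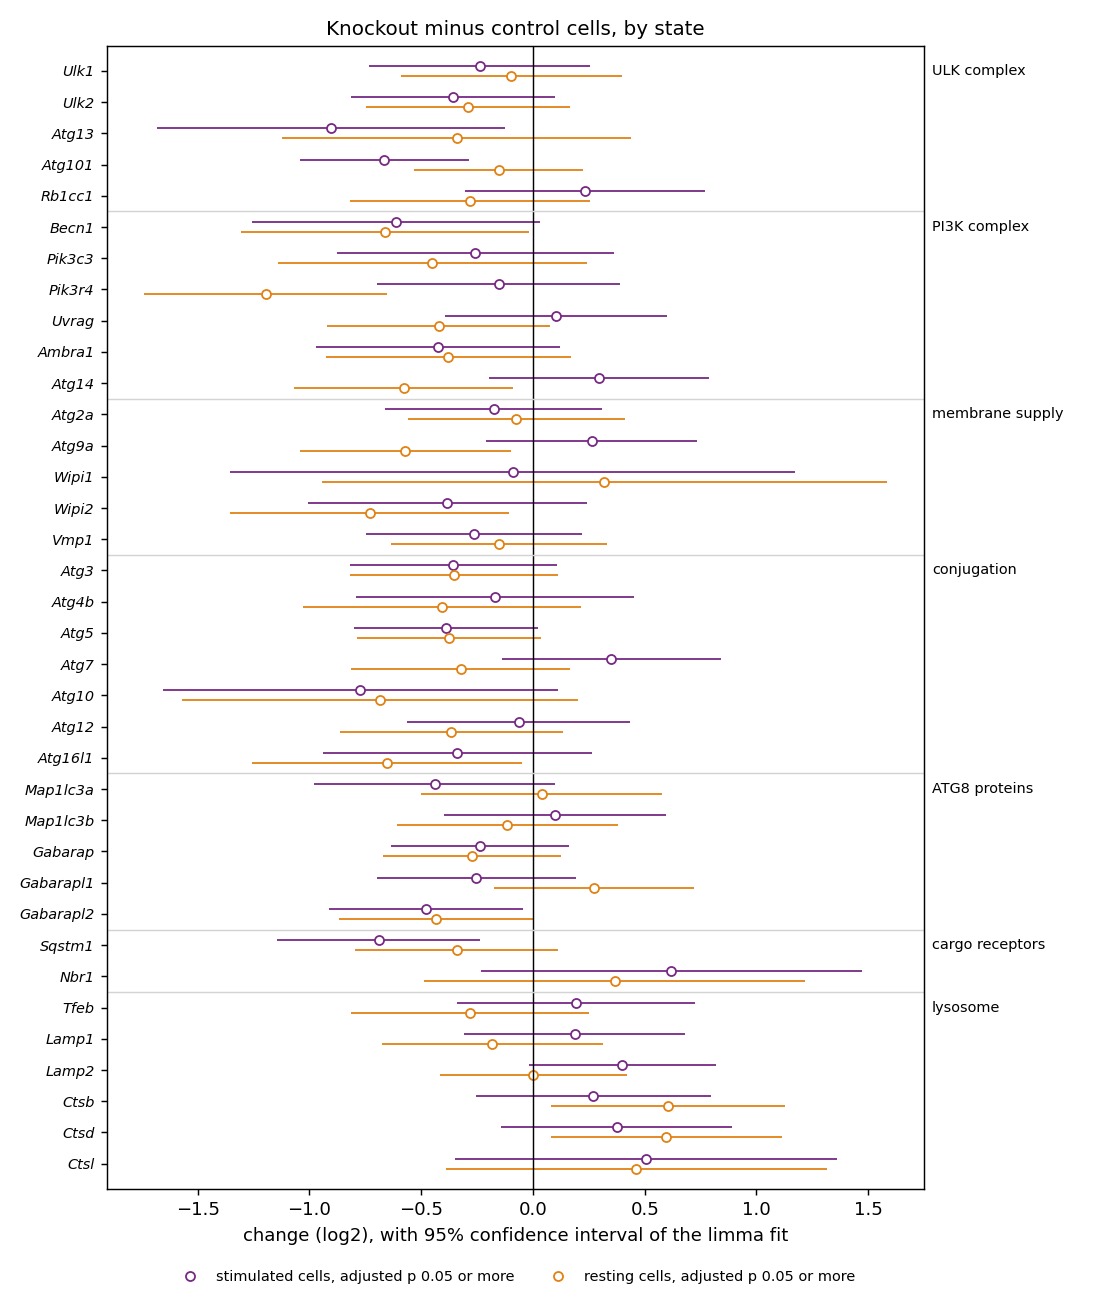
Change of each of the 36 tested genes between knockout and control cells (x axis: knockout minus control, log2), in stimulated cells (purple, upper) and resting cells (orange, lower). Lines are 95% confidence intervals, and open points did not pass an adjusted p of 0.05, which is all of them. In stimulated cells the 6 lysosomal genes at the bottom lie right of 0.

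The 6 lysosomal member genes had mostly positive changes. In stimulated cells 6 of 6 were higher in knockout cells, with a median of 0.32 against -0.02 for all features and a range from 0.19 (Lamp1) to 0.51 (Ctsl). In resting cells 4 of 6 were positive, with a median of 0.23 against -0.21. None of these changes passed the test. Of 21 further lysosomal hydrolases, 9 had a positive change in stimulated cells (median -0.18) and 5 in resting cells (median -0.32). Of 16 further lysosomal membrane and transport genes, 6 had a positive change in stimulated cells (median -0.05) and 3 in resting cells (median -0.29). Lamp2, a lysosomal membrane glycoprotein, was at 2.93, 2.79 and 2.58 in knockout stimulated cells, against 2.57, 2.06 and 2.47 in control stimulated cells, without overlap and at 0.40 (SE 0.19, limma adjusted p = 0.244). Its second probe, for another transcript variant, gave 0.09 between the same groups. Lamp2 was called higher with quantile normalisation, over detected spots and after normexp correction (limma adjusted p from 0.00973 to 0.803 over its alternatives), and Ctsd was called higher in stimulated knockout cells over detected spots and after normexp correction (0.027 to 0.775). In resting cells Ctsb was at 4.43, 4.89 and 4.69 in knockout cells, against 4.15, 4.03 and 4.02 in control cells, a change of 0.60 (SE 0.24, limma adjusted p = 0.233). Ctsd in the same samples, given above, had a change of 0.60 (SE 0.23, limma adjusted p = 0.233), and neither gene's groups overlapped. The second Ctsd probe gave 0.31 (limma adjusted p = 0.384) between these groups. Between resting cells Ctsb and Ctsd were called after normexp correction and under none of the other alternatives.

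Scaling set the sign of this difference in part. Under the 75th percentile, all features had a median change of -0.02 in stimulated and -0.21 in resting cells. It was 0.09 and -0.05 with quantile normalisation, -0.58 and -0.81 with median scaling, and 0.39 and 0.14 over detected spots. In stimulated cells 6 of 6 lysosomal genes were positive under all of these, and after normexp correction, except median scaling, where 0 of 6 were, with a median of -0.24. The lysosomal median stood above that of all features under each scaling in both states.

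Markers of myeloid cells, in which lysosomal proteases are abundant, moved in the same direction. Of the 13 myeloid markers 11 were tested, and their summed linear level was 30.1 to 37.2 in knockout stimulated cells, against 10.9 to 27.0 in control stimulated cells. In resting cells the sum was 91.3 to 142 in knockout cells, against 45.7 to 78.1 in control cells. In stimulated cells 10 of the 11 had a positive change, with a median of 2.30, and 4 were called. In resting cells 10 of 11 were positive, with a median of 1.50 and no call. C1qa, Cd14 and S100a8 were not well above background on any control stimulated array, and every tested myeloid marker was detected in the other 3 groups. Stimulation went with lower myeloid sums in both genotypes. Summed NK cell markers were 218 to 422 in knockout stimulated cells, against 35.0 to 36.5 in control stimulated cells. Klrd1 and Klrk1 of this list were not well above background on any control stimulated array. With stimulation in control cells the NK markers changed by 0.02 to 7.25, with a median of 1.08, so their linear sum can rest on few genes. Summed plasma cell markers were 196 to 258 in knockout stimulated cells, against 397 to 633 in control stimulated cells. The part of any of these cell types in the values of the 36 genes was not tested.

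**Figure D4:**
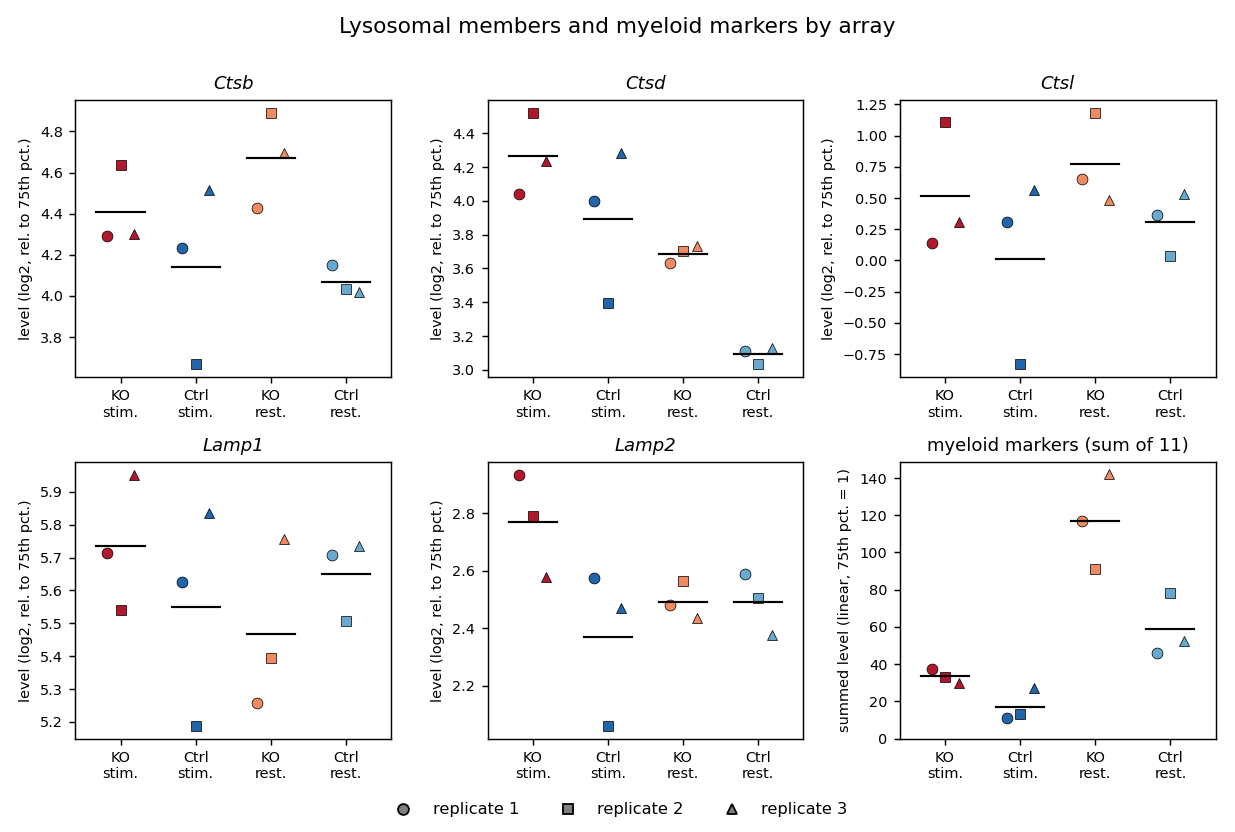
Levels of 5 lysosomal genes (y axis: log2 intensity relative to the array's 75th percentile) and the summed linear level of 11 myeloid markers (last panel, y axis starting at 0), by array. Marker shapes give the replicate and bars are group means. Knockout samples have the higher myeloid sum in each state, and Ctsb and Ctsd are higher in all 3 knockout resting than in all 3 control resting samples.

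Further genes of the same pathways, which are not among the 37, gave the following counts. Of 26 further autophagy genes tested, 2 rose and 8 fell with stimulation in control cells (38.5%, against 27.8% of all features called), and 1 rose and 2 fell in knockout cells (11.5%, against 16.1%). Rubcn, an inhibitor of the UVRAG-containing PI3-kinase complex, fell, with changes of -2.20 (SE 0.21, limma adjusted p = 4.01e-05) in control and -1.64 (SE 0.21, limma adjusted p = 0.000583) in knockout cells. Tmem41b, a scramblase that acts with VMP1, was at 2.90, 2.28 and 2.71 in control stimulated cells, against 0.85, 0.85 and 1.01 in control resting cells, and rose, with a change of 1.73 (SE 0.21, limma adjusted p = 0.000187). In knockout cells it rose, with a change of 1.08 (SE 0.21, limma adjusted p = 0.00644). Between stimulated cells it was lower in the knockout, at 1.80, 1.63 and 1.62, with a change of -0.95 (SE 0.21, limma adjusted p = 0.0396), the 1 call of this list between genotypes. Bnip3, a mitophagy receptor, was at 4.61, 5.01 and 2.06 in control stimulated cells, against 2.0, 1.91 and 1.75 in control resting cells, and rose, with a change of 2.01 (SE 0.62, limma adjusted p = 0.0333). That change was 2.86 on the slide of replicates 1 and 2 and 0.31 on the slide of replicate 3. The protease Atg4c fell in knockout cells, with a change of -1.02 (SE 0.31, limma adjusted p = 0.0499).

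Of 21 further lysosomal hydrolases, 2 rose and 3 fell in control cells (23.8%, against 27.8% of all features), and 0 rose and 2 fell in knockout cells (9.52%, against 16.1%). Ctss, cathepsin S, which processes the invariant chain of MHC class II, fell in both, with changes of -1.45 (SE 0.18, limma adjusted p = 0.000163) in control and -0.95 (SE 0.18, limma adjusted p = 0.00425) in knockout cells. Gusb, beta-glucuronidase, rose in control cells, with a change of 1.97 (SE 0.24, limma adjusted p = 0.000187). Ppt1, a thioesterase, fell in knockout cells, with a change of -1.18 (SE 0.19, limma adjusted p = 0.0021). Between stimulated cells Gusb was at 3.38, 3.06 and 3.34 in the knockout, against 4.87, 3.97 and 4.60 in the control, a change of -1.22 (SE 0.24, limma adjusted p = 0.0271) and the 1 call among hydrolases.

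Of 16 further lysosomal membrane and transport genes, 3 rose and 3 fell in control cells (37.5%, against 27.8% of all features), and 2 rose in knockout cells (12.5%, against 16.1%). Npc2, a cholesterol carrier of the lysosomal lumen, rose, with changes of 2.07 (SE 0.26, limma adjusted p = 0.000224) in control and 1.81 (SE 0.26, limma adjusted p = 0.00112) in knockout cells, and the membrane protein gene Tmem192 rose in knockout cells, with a change of 0.70 (SE 0.19, limma adjusted p = 0.027). Slc38a9, an arginine sensor upstream of mTORC1, fell in control cells, with a change of -1.17 (SE 0.18, limma adjusted p = 0.000797). Cd63, a tetraspanin of late endosomes that is also abundant in myeloid cells, was at 1.75, 2.69 and 1.79 in knockout stimulated cells, against -1.65, -2.11 and -0.25 in control stimulated cells. The control values were well above background on 1 of 3 arrays, and the change of 3.41 (SE 0.43, limma adjusted p = 0.00477) was the 1 call of this list between genotypes. Cd63 fell with stimulation in control cells, with a change of -1.65 (SE 0.43, limma adjusted p = 0.0141). That change was -2.24 on the slide of replicates 1 and 2 and -0.47 on the slide of replicate 3.

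Of 19 genes of mTOR signalling and its TFE and FOXO transcription factors, 1 rose and 4 fell in control cells (26.3%, against 27.8% of all features), and 1 rose and 3 fell in knockout cells (21.1%, against 16.1%). Sesn1, a sestrin that restrains mTORC1, fell, with changes of -1.95 (SE 0.32, limma adjusted p = 0.00106) in control and -1.72 (SE 0.32, limma adjusted p = 0.00437) in knockout cells, and Sesn3 fell in control cells, with a change of -1.92 (SE 0.27, limma adjusted p = 0.000442). Foxo1, a transcription factor of resting B cells, fell, with changes of -0.85 (SE 0.20, limma adjusted p = 0.00966) in control and -0.89 (SE 0.20, limma adjusted p = 0.013) in knockout cells. Ddit4, another inhibitor of mTORC1, fell in knockout cells, with a change of -1.30 (SE 0.27, limma adjusted p = 0.00876). None of the 82 genes of these 4 lists was called by limma between knockout and control resting cells, where 9 had an unadjusted p under 0.05 (11%, against 19.7% of all features), nor for the difference between the genotypes, where 10 had (12.2%, against 10.6%).

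**Figure D5:**
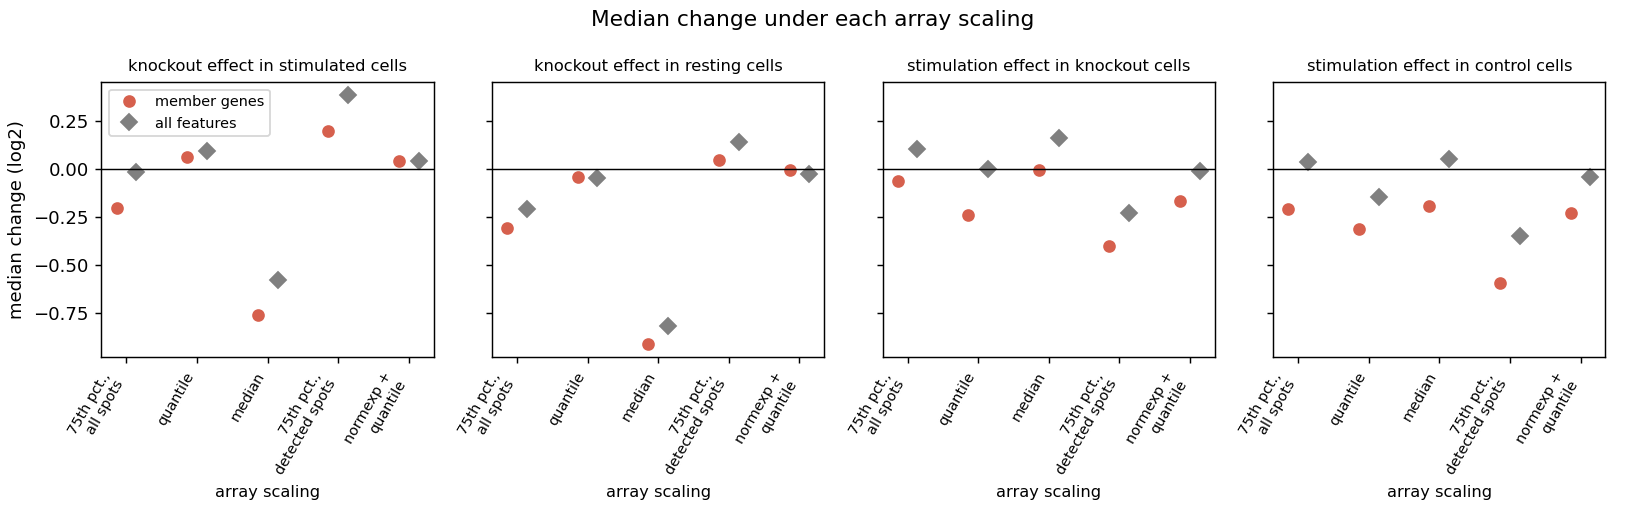
Median change (y axis, log2) of the tested member genes (circles, left) and of all features (diamonds, right) under 5 array scalings (x axis), in 4 comparisons. With stimulation in control cells the circles lie below the diamonds under each scaling, and in the knockout comparisons the level of both moves with the scaling, from -0.91 to 0.05 for the member genes in resting cells.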

How the data were processed

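RNA from 12 samples was hybridised to Agilent 1-colour arrays of 62976 spots, 55681 distinct non-control probes, on 2 slides. The deposited files hold the processed signal of each spot, a background-subtracted intensity on a linear scale, from Agilent Feature Extraction (version 10.7.3.1 per the file headers, 9.1 per the submitters' processing notes). The deposited value table of the series, an intensity table by the authors, differed from these signals by at most 0.497%.

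From these intensities log2 values were taken relative to each array's 75th percentile. Spots flagged as outliers were set missing, the spots of a probe were averaged, and a probe was kept where some group had all 3 arrays well above background. Names came from RefSeq accessions (GRCm38.p6), 26413 in all, and the brightest probe stood for a gene. Groups were compared with limma 3.58.1 (lmFit and eBayes, R 4.3.3) over all 12 arrays with 4 group means, 5 contrasts and Benjamini-Hochberg adjustment over 22981 features. The code was checked on simulated data. Samples of a group correlated at 0.943 to 0.969 over features, 0 spots were saturated, and precision is limited by having 3 arrays per group.

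Replicates 1 and 2 of every group lay on one slide and replicate 3 on the other. The fit described above used no block, and the replicate block was an alternative, fitted for every comparison. Same-numbered samples were described as correlated where all 3 correlations of their deviations from the group mean were over 0.1. This held for knockout against control in stimulated cells (0.329 to 0.481) and for stimulation in control cells (0.418 to 0.506). It did not hold for knockout against control in resting cells (lowest -0.115) or for stimulation in knockout cells (lowest 0.00292).

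All member genes were named. Outside them, Sub1 and Cd79a were named, with up to 3 called genes of largest change and no overlap per further list and comparison, and marker lists by counts and sums. A gene that this rule names among the hydrolases is not reported here. The members and lists were chosen with earlier results of these data known. Alternatives were other array scalings, normexp background correction (offset 50), filters, probe rules, variance estimates, replicate and slide blocks, and leaving out each array.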

Additional observations from a re-analysis of the deposited data

How the results depend on the processing

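Of the 4394 single-gene values under alternative settings, 1 changed sign with a call: Gabarap with stimulation in control cells was -0.39 after normexp correction (limma adjusted p = 0.0343, the lowest of its alternatives, which reach 0.864). The counts of called genes, with the reported count first in each case, moved as follows, and the cause was not tested. Counts are of 36 genes, and brackets hold the share of all features called in the same fit. The filter on all arrays left 22 genes and 10275 features, and no filter kept 37 genes and 49286 features. For knockout against control in stimulated cells the count was 0 (3.46%). It was 3 with the replicate block (8.12%), 1 with the slide block (5.7%) and 1 with quantile normalisation (2.38%). The percentile over detected spots gave 5 (10.2%) and normexp 2 (4.4%). The filter on all arrays gave 2 (14.6%) and the trended robust variance 2 (6.68%). In resting cells it was 0 (0.0131%). It was 3 with normexp (1.03%) and 1 with either the filter on all arrays (0.584%) or the trended variance (0.466%). For stimulation in control cells it was 9 (27.8%). It was 1 with median scaling (14.6%), 20 with detected spots (37.1%) and 3 with no filter (7.88%). It was 4 with only the 2 groups compared (19.7%) and 3 without both arrays of control replicate 1 (16.9%). For stimulation in knockout cells it was 1 (16.1%). It was 6 with quantile normalisation (19.8%), 12 with detected spots (21.5%) and 8 with normexp (23.8%). It was 2 with either the filter on all arrays (36.7%) or the trended variance (19.3%). For the difference between genotypes it was 0 (0.144%), and 1 with normexp (1.74%). Leaving out 1 array at a time gave 0 to 3 calls for knockout in stimulated cells (0.622% to 6.73%). It gave 3 to 8 for stimulation in control cells (20.8% to 27.4%), 1 to 2 for stimulation in knockout cells (10.5% to 18.3%) and 0 in the others. The replicate block changed no other call than the 4 named in the text. Signal over background limits the genes that were not well above background on control stimulated replicate 2.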
